A study of Homo sapiens with 3 samples.

Results

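The 9 genes described here encode enzymes that modify collagen and crosslink it, together with the chaperone that folds it. They were taken by symbol (P4HA1, P4HA2, PLOD1, PLOD2, PLOD3, LOX, LOXL2, LOXL4 and SERPINH1), and all 9 were found by Entrez identifier among the 18331 genes listed in any library. All 9 passed the filter on low counts and were among the 14016 genes tested. Their levels were read in 3 RNA sequencing libraries of PC-3, a cell line long grown from a human prostate cancer. Libraries 1 and 2 make up the KMT2D shRNA group (n = 2) and are labelled as KMT2D deficient. The control shRNA group held 1 library, labelled as KMT2D normal. Cells of both groups grew in RPMI1640 medium with serum and were collected 7 days after infection with lentivirus carrying a short hairpin RNA (shRNA). The labels do not say whether the numbers stand for different hairpins or cultures. P-values therefore rest only on the spread between libraries 1 and 2, mostly as shared across genes, and this spread may be technical. The series' design text also calls the RNA retinal, which no sample label does; the sample labels were followed. The study is of 1 cell line, and its control has no replicate.

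Collagen chains are modified while they are still inside the endoplasmic reticulum. Prolyl 4-hydroxylases, in which a catalytic alpha subunit (P4HA1 or P4HA2) is paired with the beta subunit P4HB, hydroxylate proline and so stabilise the triple helix. Lysyl hydroxylases (PLOD1, PLOD2 and PLOD3) hydroxylate lysine, and SERPINH1, also called HSP47, binds the folded triple helix on its way out. Outside the cell the copper-dependent lysyl oxidases (LOX and its relatives LOXL2 and LOXL4) oxidise lysine residues, from which the crosslinks of the matrix form. Several of these genes, among them P4HA1, P4HA2, PLOD1, PLOD2, LOX and LOXL2, are known as targets of the hypoxia-inducible factors.

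The sequences below are shown because hypoxia-induced genes are described further on, and because the 4 genes were, with LOXL2, the most changed of the 9. Each is the 250 bases before the gene's first RefSeq start site, 5′ to 3′ on the strand of the gene, from build GRCh38.p14. Capitals mark ACGTG or its reverse complement CACGT, the core of the hypoxia response element. The P4HA1 sequence is chr10:73096867-73097116 on the minus strand, and that of P4HA2 is chr5:132227092-132227341 on the minus strand. The LOX sequence is chr5:122078260-122078509 on the minus strand, and that of LOXL4 is chr10:98268195-98268444 on the minus strand.
P4HA1: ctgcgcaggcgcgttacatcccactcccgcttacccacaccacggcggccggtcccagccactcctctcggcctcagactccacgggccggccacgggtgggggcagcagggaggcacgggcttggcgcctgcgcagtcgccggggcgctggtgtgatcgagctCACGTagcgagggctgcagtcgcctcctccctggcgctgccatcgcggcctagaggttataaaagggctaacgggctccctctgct
P4HA2: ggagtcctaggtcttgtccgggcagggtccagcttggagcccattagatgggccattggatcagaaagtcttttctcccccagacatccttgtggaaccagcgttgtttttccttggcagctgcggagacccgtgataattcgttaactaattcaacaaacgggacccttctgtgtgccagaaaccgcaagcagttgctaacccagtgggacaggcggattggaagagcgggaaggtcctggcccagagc
LOX: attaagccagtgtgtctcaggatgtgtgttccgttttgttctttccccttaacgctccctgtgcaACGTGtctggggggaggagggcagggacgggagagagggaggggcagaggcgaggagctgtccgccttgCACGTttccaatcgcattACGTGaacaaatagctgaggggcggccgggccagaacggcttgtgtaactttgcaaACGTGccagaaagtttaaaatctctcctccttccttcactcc
LOXL4: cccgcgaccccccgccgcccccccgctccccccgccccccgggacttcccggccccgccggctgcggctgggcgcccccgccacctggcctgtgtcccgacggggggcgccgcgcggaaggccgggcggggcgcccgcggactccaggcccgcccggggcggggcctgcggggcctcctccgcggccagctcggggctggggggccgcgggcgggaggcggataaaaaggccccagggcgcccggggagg
LOX held 4 copies of the core in this stretch and P4HA1 held 1, whereas P4HA2 and LOXL4 held 0. Promoter windows of 300 bases, from 250 before to 50 after a start, were found in RefSeq for 8 of the 9 genes. On either strand ACGTG was in windows of 4 of these genes, and ACGTG or the related core GCGTG was in windows of 5 of them. Over all 35116 windows of that length 21.4% held ACGTG, 36.5% held GCGTG and 48.4% held either. These shares are per window. A gene with several start sites, such as LOX or SERPINH1, was counted if any of its windows matched, so the measures differ. A match is a run of letters and not a bound site. The RNA was counted by the authors on hg19, so no coordinate above belongs to the count tables.

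KMT2D, the targeted gene, was not lower in the libraries labelled KMT2D shRNA. Its level was 107 CPM (counts scaled to library size) in library 1, 138 CPM in library 2 and 100.1 CPM in the control, so the labels are used below as names only. Totals were between 5123817 and 5559504 estimated counts per library. The control library stood apart in its interferon state: ISG15, an interferon-induced ubiquitin-like protein, was at 3076 CPM there against 104 and 94.2 CPM in libraries 1 and 2. Fold change also followed transcript length across genes, with Spearman coefficients of 0.456 in library 1 and 0.460 in library 2 that rest on the shared control. With GC content (the share of G and C bases) the coefficients were -0.317 in library 1 and -0.226 in library 2. Over the 9 genes this length trend, centred on all genes, ran from -0.18 on the log2 scale at the length of P4HA2 to 0.29 at that of LOX in library 1. The part of the interferon state in the results below was not tested. As for identity, the epithelial genes KRT8, KRT18, KRT19 and CLDN4 were detected in every library. KLK2 and KLK3 were not analysed here.

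Each of the 9 genes was expressed, and together they summed to 649, 678 and 728 FPKM (read number scaled by transcript length and library total, as deposited) in library 1, library 2 and the control. P4HA1 was the most abundant, with 209, 194 and 261 FPKM in library 1, library 2 and the control, above 98.2% of the listed genes in each. PLOD1 followed with 143, 147 and 177 FPKM. No library value of P4HA1 overlapped one of PLOD1, and no value of PLOD1 overlapped those of the genes below it. The next 6 genes lay between 30.2 FPKM (P4HA2 in library 1) and 80.4 FPKM (LOXL2 in library 2). Every neighbouring couple among these 6, in the order LOXL2, LOXL4, PLOD2, SERPINH1, P4HA2 and PLOD3, overlapped in range when both groups were pooled. Within each library LOXL2 was above LOXL4, at 1.29 times its FPKM in library 1, 1.06 in library 2 and 1.07 in the control. The other neighbouring couples changed order between libraries. Further apart in that order, PLOD3 (34.0 to 39.0 FPKM) lay below every library value of LOXL2, LOXL4, PLOD2 and SERPINH1, whereas P4HA2 (30.2 to 51.2 FPKM) overlapped all of them. LOX was by far the lowest, at 1.37 to 2.79 FPKM with library 1 highest and the control lowest, and overlapped none of the others. LOXL2 and LOXL4 ranked 3 and 4 among the 9 in both labelled libraries, but 6 and 7 in the control.

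**Figure D1:**
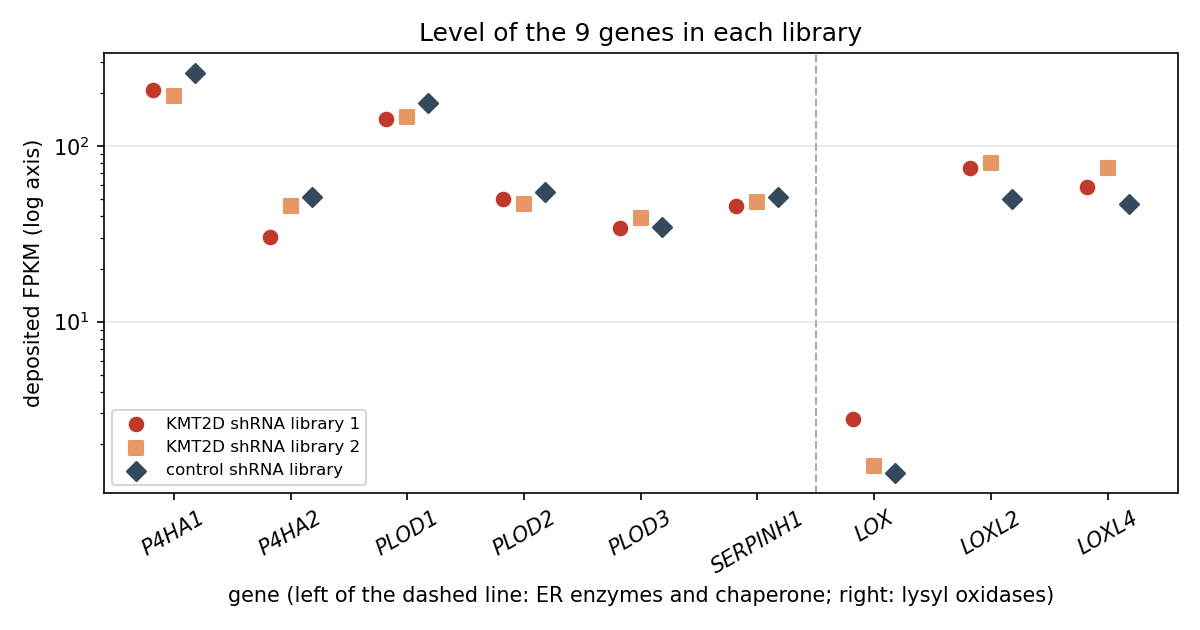
Deposited FPKM (log axis) of the 9 genes in KMT2D shRNA library 1, KMT2D shRNA library 2 and the control library, 1 point per library. P4HA1 is at the top with 194 to 261 FPKM and LOX at the bottom with 1.37 to 2.79 FPKM; the control point of LOXL2 and of LOXL4 lies below both labelled libraries.

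The comparison of KMT2D shRNA with control shRNA asked whether the enzymes of collagen maturation differ. The secreted oxidases LOXL2 and LOXL4 rose in the labelled libraries, by log2 fold changes of 0.61 and 0.50, and P4HA2 of the endoplasmic reticulum fell by 0.47 on the log2 scale. The other 6 genes did not pass the quasi-likelihood test of edgeR (p-values adjusted over all genes by Benjamini-Hochberg, threshold 0.05). Thus 3 of 9 passed (33.3%), against 31.1% of all genes tested, a share near the background. In the upward direction 2 of 9 passed against 16.5% of all genes, and in the downward direction 1 of 9 against 14.5%. The median log2 fold change was -0.15 over the 9 genes and -0.01 over all genes tested. The 6 genes of the endoplasmic reticulum had a median of -0.25 and ran from -0.47 to 0.05, and the 3 lysyl oxidases had a median of 0.61 and ran from 0.50 to 0.61. Both labelled libraries lay below the control for 5 of the 6 genes of the endoplasmic reticulum and above it for 3 of the 3 oxidases. Over all genes tested 42.8% lay below and 41.5% above in this way, and the libraries share their control, so the agreement of libraries 1 and 2 is no independent support. For LOX, library 2 and the control had 40 counts each. LOXL1, an oxidase outside the 9 genes, lay below the control in both labelled libraries (67.9 and 106 against 111 CPM). In bulk RNA, fewer cells of a type and less RNA per cell cannot be told apart.

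The count of calls among the 9 moved with the analysis, as did the background. With DESeq2's size factors in edgeR 2 rose and 0 fell, against 30.9% of all genes called, 16.8% higher and 14.1% lower. With library totals 1 rose and 0 fell (background 23.2%, with 13.2% higher and 9.96% lower), and at a mean of 5 CPM or more 1 rose and 0 fell (30.6%, with 16.5% and 14.1%). Removal of the length trend left 1 higher and 0 lower (19.5%, with 10% and 9.5%). Removal of the GC trend left 2 higher and 2 lower, the latter being P4HA1 and PLOD2 (24.6%, with 13.6% and 11%). Removal of both left LOXL2 higher and P4HA1 lower (14.7%, with 7.68% and 6.99%). DESeq2 called 0 of the 9 (8.58%, with 5.32% and 3.25%), and 2 had an unadjusted p under 0.05, as did 2526 of all 14016 genes. With no filter on low counts edgeR called 0 of the 9 (10.4%, with 5.74% and 4.65%) and again 2 had an unadjusted p under 0.05, as did 5213 of all 18258 genes. The limma test on log2(FPKM + 1) called LOXL2 higher (11.6%, with 5.57% and 6.01%). With a pseudocount of 0.1 it called 0 of the 9 (7.62%, with 3.86% and 3.76%), and with no filter 0 genes of any kind (0%).

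**Figure D2:**
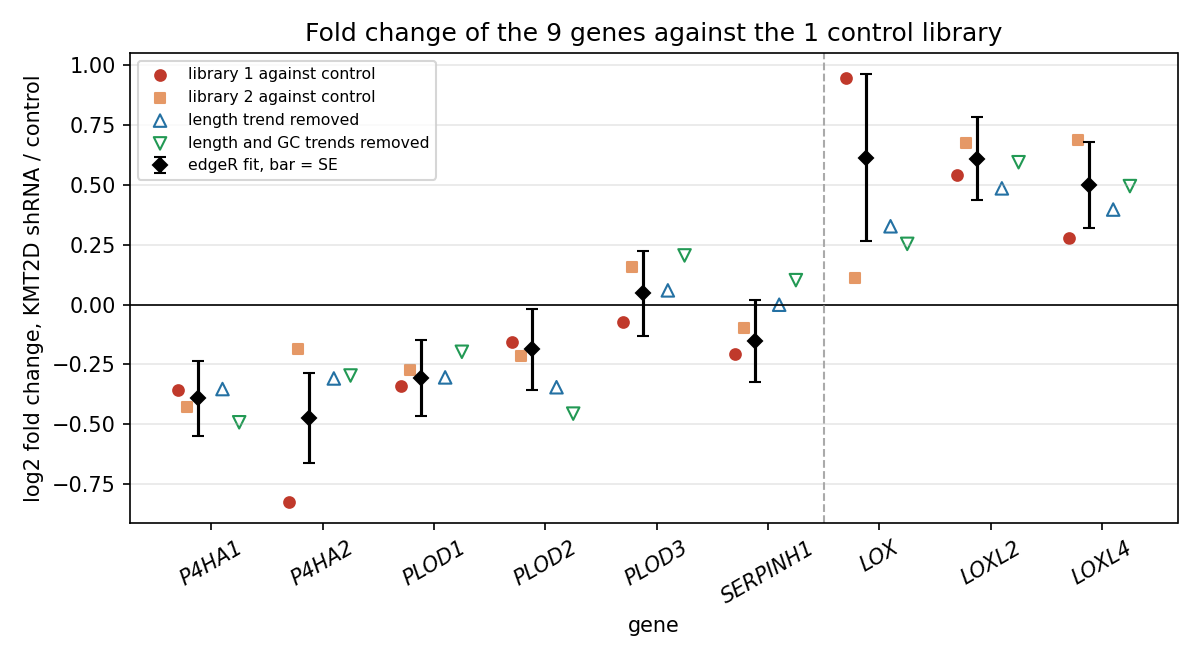
Log2 fold change (KMT2D shRNA over control) of the 9 genes: filled diamonds are the edgeR fit with its SE as bars, circles and squares are library 1 and library 2 alone, and open triangles are the fit after a trend with length, or with length and GC content, was removed. The 3 oxidases right of the dashed line lie above 0 in every setting drawn, while SERPINH1 moves from -0.15 to 0.10 with both trends removed.

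LOXL2 oxidises lysine in collagen IV and other matrix proteins. Libraries 1 and 2 had 284 and 311 CPM of LOXL2 and the control had 195 CPM, on 1485, 1578 and 1073 counts. Both labelled libraries were thus high and close together, at 297 ± 19.2 CPM (SD, n = 2). The ratio of LOXL2 to the control was 1.46 in library 1 (95% exact interval 1.35 to 1.58) and 1.60 in library 2 (1.48 to 1.73), intervals that cover counting error only, here and below. The fitted log2 fold change of LOXL2 was 0.61 (SE 0.17, edgeR adjusted p = 0.00549, or 0.00366 to 0.174 over the alternatives). It stayed past the threshold in 7 of 11 alternatives, including removal of the length trend (0.49, edgeR adjusted p = 0.0382) and of both the length and GC trends (0.59, edgeR adjusted p = 0.0205). DESeq2 gave 0.62 with an adjusted p of 0.0526. The annotated antisense gene LOXL2-AS1 had 66, 77 and 42 counts in library 1, library 2 and the control. No step of the library protocol marks strand, so reads of LOXL2 and LOXL2-AS1 that overlap could not be told apart.

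LOXL4 is a relative of LOXL2 with the same catalytic domain. It had 211 CPM in library 1, 280.4 CPM in library 2 and 174 CPM in the control. Library 2 stood well above library 1, and neither overlapped the control. The group averaged 246 ± 49.0 CPM (SD, n = 2), and the ratio to the control was 1.21 (1.11 to 1.32) in library 1 and 1.61 (1.48 to 1.75) in library 2. The log2 fold change of LOXL4 was 0.50 (SE 0.18, edgeR adjusted p = 0.0305, or 0.0197 to 0.346 over the alternatives). The call held in 2 of 11 alternatives, and with the length trend removed the value was 0.40 (edgeR adjusted p = 0.112). Without library 2 the log2 fold change of LOXL4 was 0.28, and without library 1 it was 0.69, values with no test.

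LOX is the founding member of the family and crosslinks fibrillar collagen and elastin. It was at 14.3 CPM in library 1, 7.88 CPM in library 2 and 7.27 CPM in the control, on 75, 40 and 40 counts. Library 1 alone was high. The ratio of LOX to the control was 1.97 (1.33 to 2.97) in library 1 and 1.08 (0.682 to 1.73) in library 2, where no difference was detectable at this depth. Its log2 fold change of 0.61 (SE 0.35) was as large as that of LOXL2 but did not pass (edgeR adjusted p = 0.181, or 0.176 to 0.684 over the alternatives). With the length trend removed the value of LOX was 0.33 against 0.49 for LOXL2. With both trends removed it was 0.25 against 0.59. LOX overlaps the protein-coding gene SRFBP1, which had 49, 49 and 57 counts.

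P4HA1 encodes the alpha subunit most widely used by prolyl 4-hydroxylase. It had 592 CPM in library 1, 563 CPM in library 2 and 758 CPM in the control. The labelled libraries were close together and below the control, at 577 ± 20.4 CPM (SD, n = 2) and at ratios of 0.781 (0.745 to 0.818) and 0.743 (0.708 to 0.779). The log2 fold change of P4HA1 was -0.39 (SE 0.16) and missed the threshold narrowly (edgeR adjusted p = 0.0514, or 0.0093 to 0.236 over the alternatives). With the GC trend removed it was -0.58 (edgeR adjusted p = 0.0093), and with length and GC trends removed -0.49 (edgeR adjusted p = 0.029), both past the threshold. The transcripts of P4HA1 are AT-rich, with a GC content of 40.8%.

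P4HA2 encodes the other alpha subunit. Its level was 65.4 CPM in library 1, 102 CPM in library 2 and 116 CPM in the control, so that library 1 was low and library 2 close to the control. The group averaged 83.6 ± 25.8 CPM (SD, n = 2). The ratio of P4HA2 to the control was 0.563 (0.492 to 0.643) in library 1 and 0.878 (0.78 to 0.987) in library 2. Its log2 fold change was -0.47 (SE 0.19, edgeR adjusted p = 0.0493). The call held in 0 of 11 alternatives, over which the adjusted p of P4HA2 ran up to 0.527. Without library 1 the log2 fold change was -0.19, and without library 2 it was -0.82, values with no test. The antisense gene P4HA2-AS1, which overlaps P4HA2, was not analysed here.

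None of the 3 lysyl hydroxylases passed the edgeR test at the adjusted threshold, and 0 of them had an unadjusted p under 0.05, against 5711 of all 14016 genes. PLOD1, which acts on lysine in the helix, had 432 CPM in library 1, 452 CPM in library 2 and 547 CPM in the control. PLOD2, which acts on the telopeptides where crosslinks form, had 202 and 194 CPM against 225 CPM. PLOD3, which also carries glycosyltransferase activity, had 101 and 118 CPM against 106 CPM. Both labelled libraries were below the control for PLOD1 and PLOD2, and they lay on either side of it for PLOD3. The log2 fold changes were -0.31 (SE 0.16, edgeR adjusted p = 0.143) for PLOD1, -0.19 (SE 0.17, edgeR adjusted p = 0.421) for PLOD2 and 0.05 (SE 0.18, edgeR adjusted p = 0.875) for PLOD3. PLOD2, whose transcripts have a GC content of 37.5%, passed in 1 alternative, with the GC trend removed (-0.42, edgeR adjusted p = 0.0475), and its value without the length trend was -0.35 (edgeR adjusted p = 0.146), or -0.46 without either trend (edgeR adjusted p = 0.0505). PLOD1 moved the other way, to -0.13 with the GC trend removed and -0.20 with both removed. PLOD1 and PLOD3 passed in 0 of 11 alternatives. A missed threshold does not show equal levels, and a counting interval does not show a difference between groups. In both labelled libraries the counting interval of PLOD1, 0.747 to 0.833 in library 1 and 0.783 to 0.874 in library 2, lay below 1. So did that of PLOD2, at 0.825 to 0.974 and 0.79 to 0.936.

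SERPINH1, the collagen chaperone, had 103 CPM in library 1, 111 CPM in library 2 and 119 CPM in the control. The libraries were within a narrow range, with 107 ± 5.74 CPM (SD, n = 2) in the labelled group. The fitted value of SERPINH1, -0.15 in log2 fold change (SE 0.17), did not pass (edgeR adjusted p = 0.536). It turned to 0.04 with the GC trend removed and to 0.10 with both trends removed, and no setting called it. The pseudogene SERPINH1P1 was not analysed here.

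The labelled libraries were set against each other to see how the genes varied without the control. Across the 11908 genes with a mean of 5 CPM or more, the median absolute log2 difference between libraries 1 and 2 was 0.17, and 90% of genes lay under 0.47. Of the 9 genes, P4HA2 and LOX differed by more than that. P4HA2 was 1.56 times as high in library 2 as in library 1 (1.36 to 1.79) and LOX 0.55 times as high (0.365 to 0.818). LOXL4 was 1.33 times as high (1.23 to 1.44), PLOD3 1.18 times (1.04 to 1.32) and LOXL2 1.10 times (1.02 to 1.18). For P4HA1, PLOD1, PLOD2 and SERPINH1 the counting interval of this ratio included 1. Of the 3 genes that passed against the control, P4HA2 and LOXL4 thus differed more between libraries 1 and 2 than LOXL2 did.

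Within each enzyme family the proportions of the paralogs were read as shares of summed FPKM, with the family members P4HA3, LOXL1 and LOXL3 added to complete the sums. P4HA1 supplied 86.5% of alpha subunit FPKM in library 1, 80.5% in library 2 and 83.1% in the control. The control lay between the labelled libraries, so the make-up of the alpha subunits did not separate the groups, while their sum was 242 and 241 FPKM against 314 FPKM. PLOD1 supplied 63.0% of lysyl hydroxylase FPKM in each labelled library and 66.4% in the control, and the summed level was 227 and 233 FPKM against 266 FPKM. In the oxidase family the make-up moved more. LOXL2 held 44.9% in library 1 and 39.2% in library 2 against 34.1% in the control, and LOXL4 held 34.9% and 36.9% against 31.7%. LOXL1, an elastin crosslinking relative, held 17.4% and 21.8% against 31.5%. By reads, the share of LOXL1 in the family was 11.6% in library 1 (95% Clopper-Pearson interval 10.5% to 12.8%), 14.9% in library 2 (13.8% to 16.1%) and 22.4% in the control (20.8% to 24.0%). These intervals cover counting error only. Those of libraries 1 and 2 do not overlap each other either, so the lack of overlap with the control does not separate the groups. LOXL1 itself had 67.9, 106 and 111 CPM and did not pass (log2 fold change -0.35, SE 0.19, edgeR adjusted p = 0.16). At its length and GC content the combined trend was -0.40 in library 1 and -0.27 in library 2 on the log2 scale. The shares are not corrected for this trend. Set against the lysyl hydroxylases, the summed FPKM of LOX, LOXL2 and LOXL4 came to 59.9% of theirs in library 1 and 67.7% in library 2, but 36.9% in the control. With LOXL1 and LOXL3 included the figures were 73.6% and 88.1% against 55.4%, a smaller contrast.

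**Figure D3:**
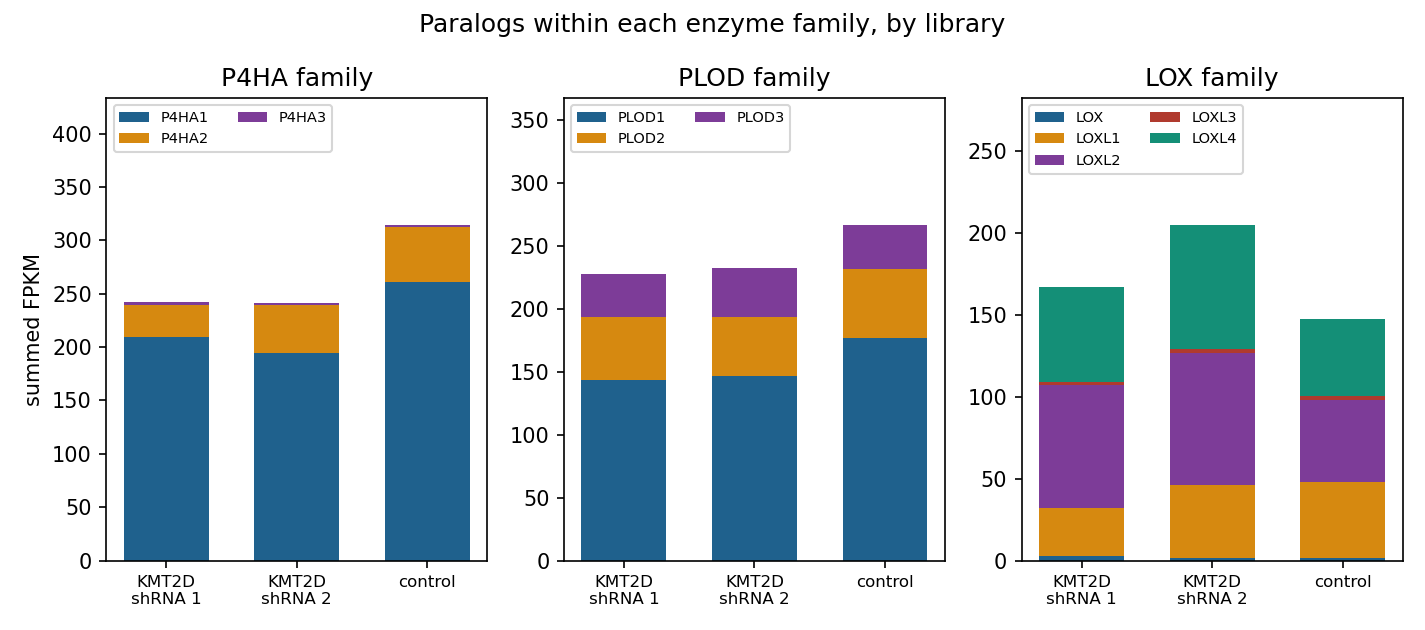
Summed deposited FPKM of the prolyl 4-hydroxylase alpha subunits (P4HA), lysyl hydroxylases (PLOD) and lysyl oxidases (LOX), stacked by paralog, in each of the 3 libraries, with axes that start at 0. The P4HA bar is 314 FPKM in the control against 242 and 241 FPKM, and the LOX family bar is 147 FPKM in the control against 167 and 205 FPKM.

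Of 12 other genes of prolyl hydroxylation and collagen folding, 1 rose and 2 fell, against 16.5% and 14.5% of all genes, and the list's median was -0.10 in log2 fold change. P4HB, the beta subunit of prolyl 4-hydroxylase and a disulfide isomerase, fell from 1901 CPM in the control to 1305 CPM in library 1 and 1496 CPM in library 2 (log2 fold change -0.44 with an SE of 0.15, edgeR adjusted p = 0.0197). The ratio of P4HB to summed alpha subunits was 2.11 and 2.36 in FPKM against 2.30 in the control, and the control lay between the labelled libraries. PPIB, the cyclophilin of the prolyl 3-hydroxylation complex, fell from 492 CPM to 292 and 312 CPM (log2 fold change -0.70, SE 0.16, edgeR adjusted p = 0.00065). P3H2, a prolyl 3-hydroxylase, rose from 5.81 CPM to 13.0 and 16.4 CPM (log2 fold change 1.33, SE 0.33, edgeR adjusted p = 0.00148). With the length trend removed, 1 of the 12 rose and 0 fell.

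Of the 5 other lysine-modifying and oxidase genes, 2 rose and 0 fell, against 16.5% and 14.5% of all genes. The other 3, LOXL1, LOXL3 and COLGALT1, had log2 fold changes of -0.35, -0.25 and -0.15 and did not pass. COLGALT2, which adds galactose to hydroxylysine, rose from 2.72 CPM in the control to 9.56 and 7.29 CPM. ATP7A, the copper transporter that loads lysyl oxidases, rose from 11.3 CPM to 25.6 and 24.0 CPM (log2 fold change 1.14, SE 0.25, edgeR adjusted p = 0.000385). With both trends removed 0 of the 5 passed. Among 13 tested genes of procollagen export and processing, 3 rose and 1 fell, against 31.1% of all genes called, so the share was near the background. With the length trend or both trends removed 1 rose and 1 fell, and by DESeq2 1 rose and 0 fell. SEC23A and SEC24D, coat proteins of the vesicles that carry cargo out of the endoplasmic reticulum, rose by log2 fold changes of 0.86 and 0.58, and TLL1, a procollagen C-proteinase, by 1.41. BMP1, the main C-proteinase, fell from 39.1 CPM to 23.1 and 23.8 CPM (log2 fold change -0.73 with an SE of 0.21, edgeR adjusted p = 0.00531).

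The substrates were the collagen chains, of which 20 of 29 were tested. Of these, 9 rose and 2 fell, and the list's median was 0.49 in log2 fold change, against 16.5% and 14.5% of all genes. Once the length trend was removed 5 rose and 2 fell, with a median of 0.19, against 10% and 9.5% of all genes. With both trends removed 6 rose and 2 fell, with a median of 0.29, against 7.68% and 6.99% of all genes. COL6A3, a chain of the beaded collagen VI, rose from 173 CPM to 843 and 904 CPM, and the basement membrane chain COL4A1 rose from 50.3 CPM to 164 and 128 CPM. COL8A1 and COL27A1 also rose, by log2 fold changes of 1.91 and 1.70. Against the median of 0.49 of the chains, the 6 genes that act on them in the endoplasmic reticulum had the median of -0.25 given above. With the length trend removed the medians were 0.19 for the chains and -0.31 for the 6 genes. With both trends removed they were 0.29 and -0.25. The difference between those lists was not tested.

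Hypoxia-induced genes were read because several of the 9 are known to respond to oxygen. Of 17 tested, 7 fell and 0 rose, against 14.5% of all genes that fell, and their median log2 fold change was -0.39. PFKFB4, a regulator of glycolysis, fell from 246 CPM to 142 and 117 CPM, and BNIP3, a mitophagy receptor, from 373 CPM to 226 and 177 CPM. ADM, a vasodilator peptide, fell by 0.81 and the angiogenic factor VEGFA by 0.63 on the log2 scale. With the length trend removed 6 fell, with both trends removed 4, and by DESeq2 3. Of the 6 genes named above as known targets, P4HA1, P4HA2, PLOD1 and PLOD2 had fitted values on the same side of 0 as this median, and LOX and LOXL2 on the other; of these only P4HA2 and LOXL2 passed the edgeR test.

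**Figure D4:**
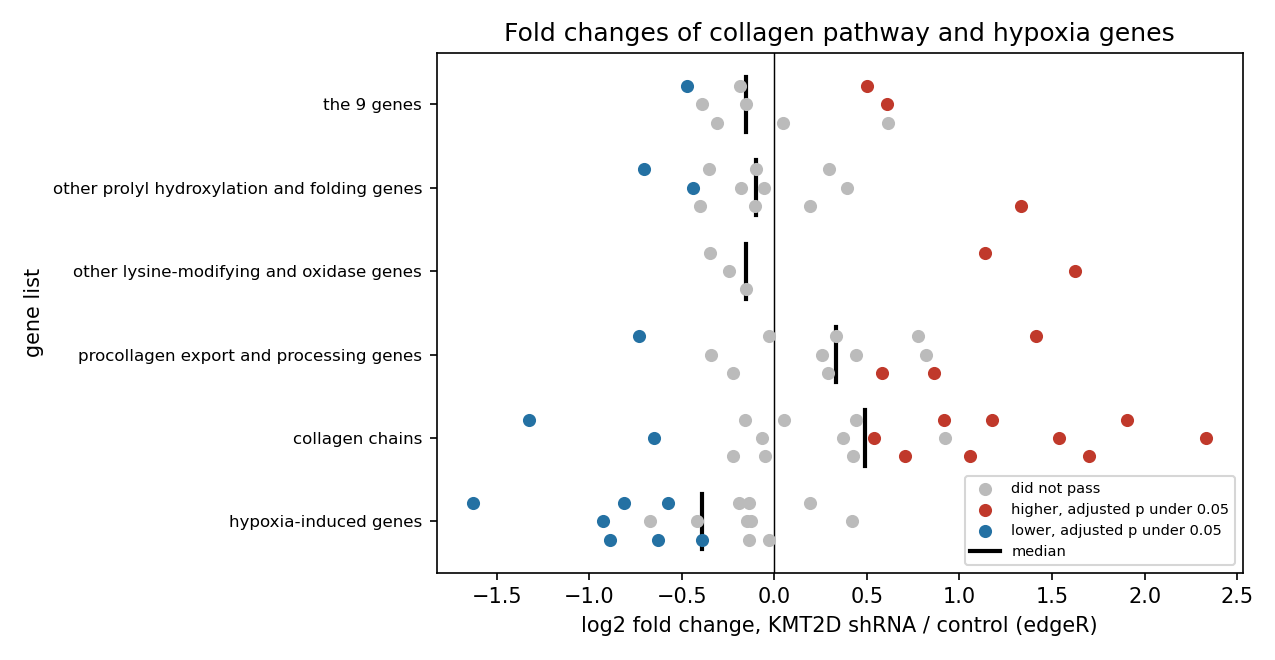
Fitted log2 fold change (KMT2D shRNA over control) of each tested gene in the 9-gene set, 4 lists of other collagen pathway genes and a list of hypoxia-induced genes, 1 point per gene, coloured by edgeR's call, with the list median as a black line. The collagen chains have their median at 0.49 and the hypoxia-induced genes at -0.39, on opposite sides of 0.

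Markers of other cell types were read because fibroblasts express these enzymes strongly. As background for the calls below, 16.5% of all genes tested rose and 14.5% fell. Of 10 fibroblast genes 9 were listed and 3 tested, of which 1 rose: PDGFRA, at 39.0 and 47.1 CPM in libraries 1 and 2 against 10.4 CPM. Their summed level was 69.8 to 73.9 FPKM over the libraries, mostly from COL1A1, while COL1A2 was at no more than 1.15 CPM, DCN at no more than 0.363 CPM and LUM at no more than 0.573 CPM, and THY1 was not analysed here. Of the 3 tested leukocyte genes CD68 and LYZ fell, and PTPRC, at no more than 2.17 CPM, did not pass. The summed leukocyte level was 41.5 and 44.6 FPKM against 102 FPKM in the control. Most of it came from CD68, with 25.16 and 29.65 FPKM against 79.17 FPKM. CD3E was not analysed here. Of the 2 tested endothelial genes KDR rose from 48.7 CPM to 116 and 83.0 CPM, and with both trends removed 0 passed. PECAM1 did not pass (log2 fold change -0.09), with 2.83 and 2.73 FPKM against 2.90 FPKM. The summed endothelial level was 22.1 and 16.2 FPKM against 10.8 FPKM, a rise that came from KDR. VWF and CDH5 were not analysed here. Of the 6 epithelial genes 4 fell (against 14.5% of all genes), and the summed level was 645 and 635 FPKM against 1083 FPKM; with the length trend removed 2 fell, and with both trends removed 0, at a median of -0.31 in place of -0.71. The summed prostate luminal level was 12.6 to 18.6 FPKM. The part of these markers in the results on the 9 genes was not tested.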

How the data were processed

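Polyadenylated RNA from 3 PC-3 libraries was fragmented, reverse transcribed with random primers and sequenced on a BGISEQ-500, per the labels' protocols. Bowtie2, HISAT and hg19 are named in the submitters' processing notes; for their roles, and for the counting tool, the sources used here give nothing. The authors deposited, per the file headers, an expected count (estimated reads, not normalized), FPKM (scaled by length and library total) and a length per Entrez gene and library. Genes with no entry in 1 library but with one in another got a count of 0 there. Names came from RefSeq (GRCh38.p14), by identifier for 18214 genes and by transcript for 28, while 89 were unmatched.

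Expected counts were rounded and tested with edgeR 4.0.16 (R 4.3.3): default low-count filter, TMM scaling, quasi-likelihood F test on group, Benjamini-Hochberg adjustment over all 14016 genes tested, threshold 0.05. The control has no replicate, so the test has 1 residual degree of freedom and assumes that the control varies like the labelled libraries (biological coefficient of variation 10.9%). Each gene's variance was drawn toward a trend over all genes, with 45.7 prior degrees of freedom. A p-value therefore rests mostly on spread shared across genes and little on that gene's own difference between libraries 1 and 2. CPM values are TMM-scaled. Fold changes per library use a prior count of 2. SE values derive from the F statistic. Ratio intervals are exact binomial (95%) and cover counting error only, since reads without molecular identifiers are not independent molecules. On simulated data for this comparison, with 200 of its 13800 genes changed, recovery was 13.4% for genes changed 1.5-fold and 67.2% for those changed 2-fold, with 2 false calls. In the data 31.1% of genes were called, so the adjusted threshold was less strict there than in the simulation. The simulated recovery therefore does not measure how often changes of the size seen in the 9 genes are missed. Length and GC trends were fitted by loess (span 0.5) on each library's fold change, centred on their mean and removed as offsets. GC content came from GENCODE transcripts for 98.2% of tested genes and all 9 genes. Other alternatives used DESeq2 1.42.0 and limma 3.58.1.

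The genes, the lists of other pathway, hypoxia and marker genes, and the tests were chosen with earlier results of these data known. Genes named from other lists were up to 4 called genes per list that averaged at least 5 CPM, ranked by the smaller of their changes in libraries 1 and 2; ISG15, LOXL1, LOXL3, COLGALT1, P4HA3, COL1A1 and marker genes at or near 0 were named outside this rule after their values were seen. No list of genes alike in pattern was drawn, because 3 libraries give too few points. The promoter of LOXL2 and some marker genes are not reported here.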

Additional observations from a re-analysis of the deposited data

How the results depend on the processing

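The direction of 7 of the 9 genes was the same in every alternative. SERPINH1 turned to 0.040 with the GC trend removed and to 0.10 with both trends removed, and PLOD3 to -0.07 without library 2; no fit called either. P4HA2 was no longer past the threshold under any alternative: its log2 fold change was -0.47 with DESeq2 size factors, with no filter on low counts and by DESeq2, -0.46 with library totals and by limma on log2(FPKM + 0.1), -0.48 at a mean of 5 CPM or more, -0.31 with the length trend removed, -0.42 with the GC trend, -0.30 with both, and -0.45 by limma on log2(FPKM + 1), filtered or not. LOXL2 was lost with no filter (0.61), by DESeq2 (0.62) and by limma with a pseudocount of 0.1 (0.63) or with no filter (0.62). LOXL4 was lost with library totals (0.51), no filter (0.50), a mean of 5 CPM or more (0.49), the length trend removed (0.40), both trends removed (0.49), DESeq2 (0.51) and limma (0.50 in each setting). P4HA1 gained a call when the GC trend was removed (-0.58) and when both were (-0.49), and PLOD2 with the GC trend removed (-0.42). The causes were not tested.

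Of the 9 genes, 2 rose and 1 fell in the edgeR fit. The number that rose was 1 with library totals, at a mean of 5 CPM or more, with the length trend or both trends removed and by limma on log2(FPKM + 1), and 0 with no filter, by DESeq2, and by limma with a pseudocount of 0.1 or no filter. The number that fell was 2 with the GC trend removed and 0 with DESeq2 size factors, library totals, no filter, a mean of 5 CPM or more, the length trend removed, DESeq2 and the limma fits. At an unadjusted p under 0.05, 2 of the 9 passed by DESeq2, in edgeR with no filter and by limma with a pseudocount of 0.1 or no filter, against 4 in the edgeR fit. Such a p was held by 5711 of all 14016 genes in the edgeR fit and 2526 of 14016 by DESeq2. The counts were 5213 of 18258 in edgeR with no filter, and 4693 of 14016 by limma with a pseudocount of 0.1. By limma with no filter the count was 4568 of 18331. Over all genes 2319 rose and 2033 fell; these were 1048 and 849 with no filter, 1404 and 1332 with the length trend removed, 1057 and 962 with both removed, 746 and 456 by DESeq2, 780 and 843 by limma on log2(FPKM + 1), 541 and 527 with a pseudocount of 0.1, and 0 and 0 by limma with no filter, where 4568 had an unadjusted p under 0.05.

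The median of the 9 was -0.00086 with the length trend removed, 0.040 with the GC trend and 0.10 with both removed. Each of these is the value of SERPINH1, the middle gene. The 6 genes of the endoplasmic reticulum had a median of -0.31 with the length trend removed and -0.25 with both removed. For the 3 lysyl oxidases these medians were 0.40 and 0.49. The medians were not tested. By counts in place of FPKM, P4HA1 held 89.3% of its family in library 1, 84.3% in library 2 and 86.3% in the control. PLOD1 held 59.0% in the labelled group and 62.3% in the control. LOXL2 held 48.7% in library 1 and 43.5% in library 2 against 39.3% in the control. By counts per kilobase the order of the levels did not change. Leaving out a labelled library leaves 1 against 1, a value with no test and no count of calls: the median was then -0.15 or -0.10. No paired analysis was possible because the control has 1 library with no number. LOX (40 to 75 counts) is the gene limited most by depth.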
